A study of Mus musculus with 6 samples.

Results

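Immediate early genes are transcribed within minutes of a stimulus, without the need for new protein synthesis, because their promoters are bound beforehand by factors that kinases switch on. Growth factors, wounding, stretch and the handling of tissue all induce them, and their transcripts are short-lived. Most encode transcription factors that pass the signal on. Fos and Jun proteins pair through leucine zippers as AP-1, Egr proteins bind GC-rich sites through zinc fingers, Atf3 is a stress-induced relative of AP-1, and Ier2 is a small nuclear protein. The 10 genes described here (Fos, Fosb, Jun, Junb, Jund, Egr1, Egr2, Egr3, Atf3 and Ier2) were taken by symbol from the 45777 genes of the deposited count table, each of which matched 1 row, and 10 of 10 passed the filter on low counts.

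B16F10 cells, a mouse melanoma line, were grown as grafts in the hind footpad or in the flank skin, and total RNA was sequenced from 3 tumors of each site. All 6 tumors are labelled as from Foxn1-/- hosts of 8 weeks of age, a genotype that lacks a thymus and so T cells. The study's text describes grafts of this line both in C57BL/6J and in Foxn1-null mice. The comparison of sites was made to ask how mechanical load on the sole bears on gene expression. Load and site cannot be told apart in these samples. The labels describe RNA of tumors taken from the implantation site, and the methods speak of isolated tumor cells without naming how they were separated. In the methods, flank and footpad of a mouse were grafted at the same time, and the labels do not say which tumors shared an animal.

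Between 46529649 and 66364366 reads fell on genes in each tumor. Melanocyte markers were abundant in all tumors (10 of 10 detected, with a summed level of 13847 to 29556 CPM, read counts divided by TMM-scaled library sizes). Host cells differed between the tumors. The 9 fibroblast markers summed to between 2761 and 3766 CPM in footpad tumors and between 95.9 and 432 CPM in flank tumors, and 8 of 9 were called higher in footpad tumors. The 8 endothelial markers summed to 138 to 225 CPM against 76.9 to 101 CPM, with 3 of 8 called higher, and the 8 macrophage markers to 118 to 188 CPM against 24.3 to 102 CPM, with 1 of 8 called higher. Called means an adjusted p under 0.05 from edgeR and a fold change of 2 or more. Of all genes tested, 2.89% were called higher and 0.872% lower. Neutrophil markers ranged from 6.61 to 341 CPM in footpad tumors and from 4.22 to 28.8 CPM in flank tumors. Of their defining genes Ly6g was at 0 in 3 tumors and Camp in 4. Footpad replicate 2 stood apart, with 672 CPM of keratinocyte and 602 CPM of skeletal muscle markers against at most 32.4 and 83.0 CPM in any other tumor. The 5 hemoglobin and erythroid genes summed to 36260 CPM in footpad replicate 1, 17773 CPM in footpad replicate 3 and 30913 CPM in flank replicate 1, and to at most 3952 CPM in the other tumors. No melanocyte, neutrophil, keratinocyte, skeletal muscle or erythroid marker was called. At an unadjusted p under 0.05 from edgeR, however, 6 of 6 tested neutrophil and 7 of 8 tested keratinocyte markers were higher in footpad tumors. One side held for melanocyte markers too, with 1 of 10 lower and 0 higher, and the number was 0 for skeletal muscle and erythroid markers. Of all genes 14.8% were higher and 10.5% lower at that threshold.

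The promoters of these genes carry binding sites for the factors that kinases act on, and 7 of the 10 had a window in the RefSeq promoter table of GRCm38.p6, the build also called mm10. The windows hold 250 bases before an annotated start and 50 after it. Egr1, Egr3 and Ier2 had no entry. The letters TGACG, the core of the cyclic AMP response element (CRE, TGACGTCA in full), were present on either strand in a window of 5 of the 7 genes (Fos, Fosb, Junb, Egr2 and Atf3) and in a window of 23% of all 27025 genes in the table. The full CRE, which contains the core, was in 0 of the 7 and in 2.03% of all genes. The AP-1 site TGAGTCA was also in 0 of the 7, and in 5.95% of all genes. The Egr site GCGNGGGCG was found in the Fosb window alone of the 7, against 6.27% of all genes. The CArG box, the element bound by serum response factor, was found in Egr2 alone, against 1.81% of all genes. A match is a stretch of letters, not a bound site, and elements farther from the start lie outside these windows.

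The 150 bases before the start of the table's window are shown for Fosb, Junb and Egr2, for which each footpad tumor lay above all flank tumors, and for Fos, which was not, with the CRE core and the CArG box in capitals. Fosb lies on the minus strand at chr7:19310046-19310195, Junb on the minus strand at chr8:84978749-84978898, Egr2 on the plus strand at chr10:67537719-67537868 (1 of 5 listed starts) and Fos on the plus strand at chr12:85473740-85473889. Starts farther upstream are also annotated for Fosb and Egr2, so that 73 of the 150 Fosb bases, the core included, and 150 of the 150 Egr2 bases lie inside the RefSeq span of the gene, against 0 for Junb and Fos.
Fosb: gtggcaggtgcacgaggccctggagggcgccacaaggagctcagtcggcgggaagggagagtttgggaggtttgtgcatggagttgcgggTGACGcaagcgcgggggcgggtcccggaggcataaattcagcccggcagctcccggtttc
Junb: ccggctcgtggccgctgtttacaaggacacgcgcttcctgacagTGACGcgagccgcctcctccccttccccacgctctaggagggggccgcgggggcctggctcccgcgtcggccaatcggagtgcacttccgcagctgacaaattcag
Egr2: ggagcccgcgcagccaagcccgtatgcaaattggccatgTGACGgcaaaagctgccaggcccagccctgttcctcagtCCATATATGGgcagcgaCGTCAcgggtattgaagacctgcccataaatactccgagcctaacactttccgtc
Fos: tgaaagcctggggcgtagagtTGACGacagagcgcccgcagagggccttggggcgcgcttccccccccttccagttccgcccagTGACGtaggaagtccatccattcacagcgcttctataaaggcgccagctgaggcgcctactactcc
Counted from the start, with -1 as the base before it, the core began at -60 in Fosb, at -106 in Junb, at -129 and -66 in Fos, and at -111 and -55 in Egr2, where the CArG box began at -72. For Egr2 these positions hold for the start shown. Of its other listed windows, that from chr10:67535249 held neither the core nor the box. The window from chr10:67537316 held the box but not the core. The core was thus present both in promoters of genes without overlap between the sites and in that of Fos.

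Footpad tumors had more Egr3, Fosb and Junb RNA than flank tumors, and Egr2, Fos, Jun, Jund, Egr1, Atf3 and Ier2 did not pass the test. In edgeR's quasi-likelihood test, with the p-values of the 17210 genes tested adjusted by Benjamini-Hochberg, 3 of the 10 had an adjusted p under 0.05, all higher in footpad tumors, against 3.43% of all genes higher and 1.44% lower. A gene is described as called where the fold change was also 2 or more. By this rule 2 members were called higher, Egr3 and Fosb, against 2.89% of all genes higher, 0.872% lower and 3.76% in either direction. DESeq2 also called 2, both higher, where it called 6.71% of all genes higher and 2.05% lower. At an unadjusted p under 0.05 stood 4 of the 10, all of them higher in footpad tumors, against 14.8% of all genes higher, 10.5% lower and 25.3% in either direction. Junb missed the fold threshold narrowly. The sites did not overlap for 4 of 10 members, Egr2 in addition to these 3, and each was higher in footpad tumors. Of all genes, 17.5% were free of overlap in that direction, 14.9% in the other and 32.5% in either. The median log2 fold change was 0.30 over the members and -0.004 over all genes tested. In whole tumors, more cells that carry a transcript and more of it per cell cannot be told apart.

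**Figure D1:**
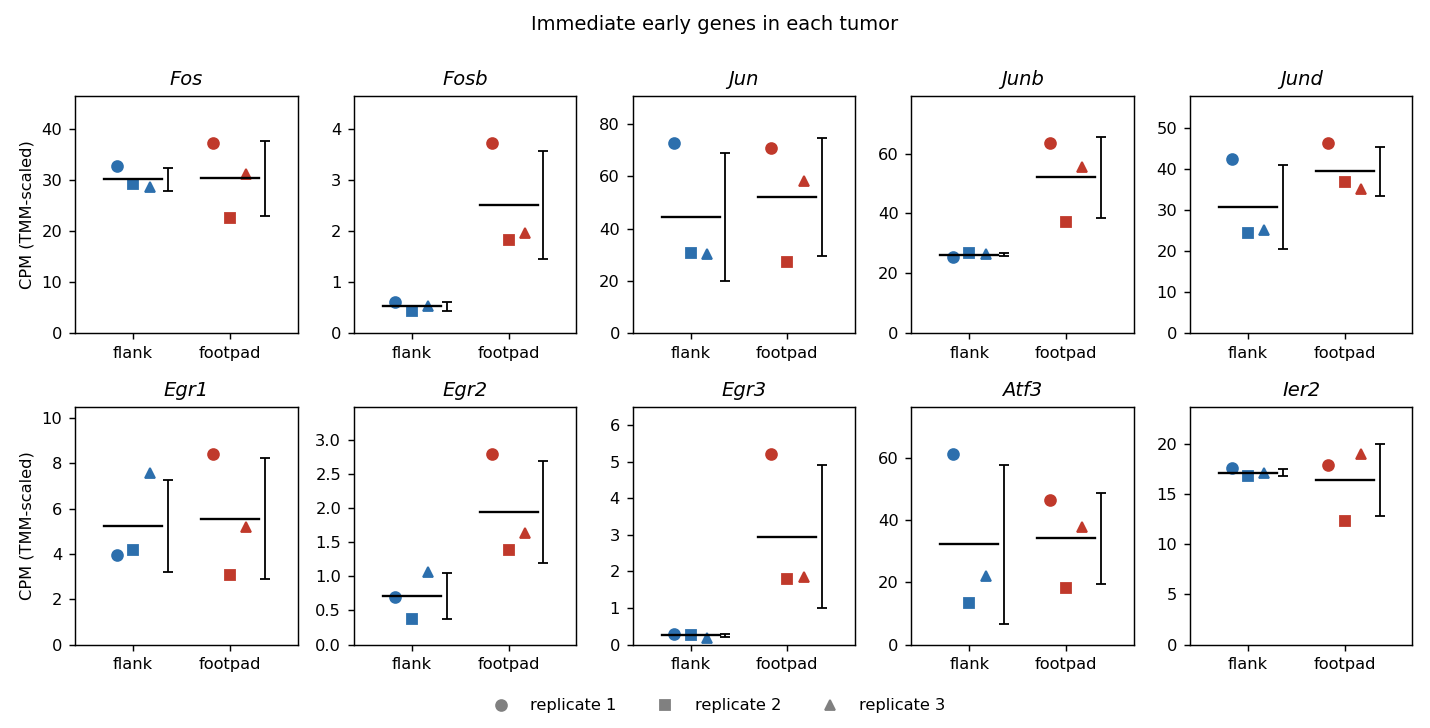
Level of each of the 10 genes (vertical axes, CPM on TMM-scaled library sizes, from 0) in 3 flank and 3 footpad tumors; points are tumors, with a marker for each replicate number, horizontal lines are means and bars the SD. Egr3, Fosb, Junb and Egr2 do not overlap between the sites, while Fos and Ier2 means nearly coincide at 30.3 and 30.1 CPM and at 16.4 and 17.2 CPM in footpad and flank tumors.

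Among the Egr genes, Egr3 differed most. Its protein is a zinc finger factor induced by mitogens and by muscle and nerve activity. Egr3 (gene 13655, chromosome 14 from 70077317 to 70082613) had 5.21, 1.79 and 1.86 CPM in footpad replicates 1, 2 and 3 and 0.276, 0.274 and 0.192 CPM in flank replicates 1, 2 and 3. These values rest on 232, 123 and 91 reads in footpad tumors and on only 16, 16 and 12 in flank tumors. The lowest footpad value was 6.50 times the highest flank value, and footpad replicate 1 was far above the other footpad tumors. The log2 fold change was 3.57 (standard error, SE, 0.55, approximate 95% interval 2.28 to 4.85, edgeR adjusted p = 0.0214), or 11.8-fold. Without footpad replicate 1 the log2 fold change was 2.87. The adjusted p from edgeR was 0.0611 in that fit, 0.0763 without footpad replicate 3, 0.0543 without flank replicate 1 and 0.0920 without flank replicate 3, and it stayed under 0.05 without footpad replicate 2 (0.0213) and without flank replicate 2 (0.0476). DESeq2 gave 1.61e-07, which lies at the low end of a range up to 0.0920 over all alternatives.

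Egr2, a regulator of myelination and of lymphocyte and macrophage responses, had 2.78, 1.39 and 1.63 CPM in footpad replicates 1 to 3 and 0.690, 0.376 and 1.05 CPM in flank replicates 1 to 3. The sites did not overlap, but flank replicate 3 came close to the lowest footpad tumor. The log2 fold change was 1.45 (SE 0.49, interval 0.31 to 2.59, edgeR adjusted p = 0.122), and the adjusted p ranged from 0.0563 to 0.338 over the alternatives. The annotated span of Egr2 overlaps that of Gm32255, and whether reads were counted by strand is not given in the sources used here.

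Egr1, the member of the family most widely used as a marker of recent stimulation, did not follow Egr3. It had 8.4, 3.08 and 5.19 CPM in footpad replicates 1 to 3 and 3.97, 4.16 and 7.57 CPM in flank replicates 1 to 3. The highest and the lowest of the 6 values were both footpad tumors. Its log2 fold change was 0.08, with an interval from -0.91 to 1.08 that does not exclude a 2-fold difference. The deposited FPKM, which accounts for transcript length, allows levels of different genes to be set side by side. Relative to Egr1, Egr3 FPKM was 0.469, 0.440 and 0.273 in footpad replicates 1 to 3 and 0.0498, 0.0501 and 0.0182 in flank replicates 1 to 3. The ratio was thus larger in each footpad tumor than in any from the flank, and so was Egr3 alone, at 6.50 times in CPM between the nearest tumors. This comparison was chosen after the values were seen and is given without a test.

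Among the Fos genes, Fosb passed the test and Fos did not. Both encode partners of Jun proteins, and Fosb also encodes a short, long-lived form that gene counts do not separate. Fosb (gene 14282, chromosome 7 from 19302696 to 19310118) had 3.73, 1.84 and 1.96 CPM in footpad replicates 1 to 3 and 0.621, 0.445 and 0.527 CPM in flank replicates 1 to 3. All 3 footpad tumors lay well above the flank tumors, the lowest of them at 2.96 times the highest flank value. The log2 fold change was 2.23 (SE 0.41, interval 1.28 to 3.19, edgeR adjusted p = 0.0321), or 4.70-fold, on 96 to 166 reads in footpad tumors and 26 to 36 in flank tumors. Leaving out a tumor kept the log2 fold change between 1.83 and 2.41. The adjusted p from edgeR was 0.0345 without footpad replicate 2, but 0.0997 without footpad replicate 1, 0.110 without footpad replicate 3, and 0.0618, 0.0726 and 0.115 without flank replicates 1, 2 and 3. DESeq2 gave 9.89e-05, the lowest of the alternatives.

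Fos itself (gene 14281, chromosome 12 from 85473890 to 85477274) had 37.2, 22.6 and 31.2 CPM in footpad replicates 1 to 3 and 32.7, 29.1 and 28.5 CPM in flank replicates 1 to 3. The flank values lay inside the footpad range. The log2 fold change was 0.01 (SE 0.19), and the interval from -0.44 to 0.46 stays within a 2-fold change in either direction. Fosb FPKM relative to Fos was 0.0565, 0.0461 and 0.0358 in footpad replicates 1 to 3 and 0.0101, 0.00837 and 0.0105 in flank replicates 1 to 3. The ratio did not overlap between the sites, and neither did Fosb alone. This ratio was also chosen after the values were seen and is given without a test. Fos remained the far more abundant transcript of this pair in every tumor.

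Of the Jun genes, Junb was higher in footpad tumors. JunB is a weaker activator than Jun and can hold it back. Junb (gene 16477, chromosome 8 from 84976909 to 84978748) had 63.5, 37.1 and 55.5 CPM in footpad replicates 1 to 3 and 25.6, 26.7 and 26.5 CPM in flank replicates 1 to 3. The flank tumors were nearly equal, with an SD of 2.12% of their mean, and the lowest footpad value was 1.39 times the highest of them. The log2 fold change was 0.99 (SE 0.20, interval 0.52 to 1.45, edgeR adjusted p = 0.0393), or 1.98-fold. Junb was called in the fit without footpad replicate 2 (log2 fold change 1.18, edgeR adjusted p = 0.0188). Over all tumors it was called with upper-quartile scaling (log2 fold change 1.01, edgeR adjusted p = 0.0417). The same held with at least 10 counts in every tumor (log2 fold change 1.01, edgeR adjusted p = 0.0288). Without footpad replicates 1 and 3 its adjusted p from edgeR was 0.128 and 0.143, and without flank replicates 1, 2 and 3 it was 0.0804, 0.0882 and 0.134. DESeq2 gave 0.000381 at nearly the same fold change, and the range over all alternatives reached 0.143. Junb FPKM relative to Fos was 1.96, 1.88 and 2.04 in footpad replicates 1 to 3 and 0.898, 1.05 and 1.06 in flank replicates 1 to 3. Relative to Jun it was 1.55, 2.36 and 1.65 in footpad and 0.610, 1.51 and 1.51 in flank replicates 1 to 3, where the sites nearly touched. Both ratios were chosen after the values were seen and are given without a test.

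Jun, the most potent activator of the family, split the tumors in another way. It had 71.0, 27.2 and 58.4 CPM in footpad replicates 1 to 3 and 72.7, 30.6 and 30.4 CPM in flank replicates 1 to 3. Flank replicate 1 was as high as footpad replicate 1, and footpad replicate 2 was the lowest of the 6. Atf3, whose protein can pair with Jun, had the same 3 tumors highest, with 46.6, 18.1 and 37.6 CPM in footpad replicates 1 to 3 and 61.2, 13.2 and 22.1 CPM in flank replicates 1 to 3. The log2 fold changes of Jun and Atf3 were 0.23 and 0.08, with wide intervals from -0.80 to 1.26 and from -1.24 to 1.40. The 3 tumors with the most Jun and Atf3 were also the 3 with the most hemoglobin and erythroid RNA, and the part of blood in these values was not tested.

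Jund, the Jun gene that is least dependent on stimulation, had 46.3, 36.9 and 35.2 CPM in footpad replicates 1 to 3 and 42.5, 24.4 and 25.2 CPM in flank replicates 1 to 3. Flank replicate 1 again lay among the footpad tumors. The log2 fold change was 0.36 (interval -0.20 to 0.92, edgeR adjusted p = 0.385). Ier2 had 17.9, 12.3 and 19.0 CPM in footpad replicates 1 to 3 and 17.6, 16.9 and 17.1 CPM in flank replicates 1 to 3, and it varied least of the 10 across all tumors on the log2 scale. Its log2 fold change was -0.07 (interval -0.52 to 0.39). The intervals of Fos, Jund and Ier2 lay inside a 2-fold change, and those of Jun, Egr1 and Atf3 did not.

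**Figure D2:**
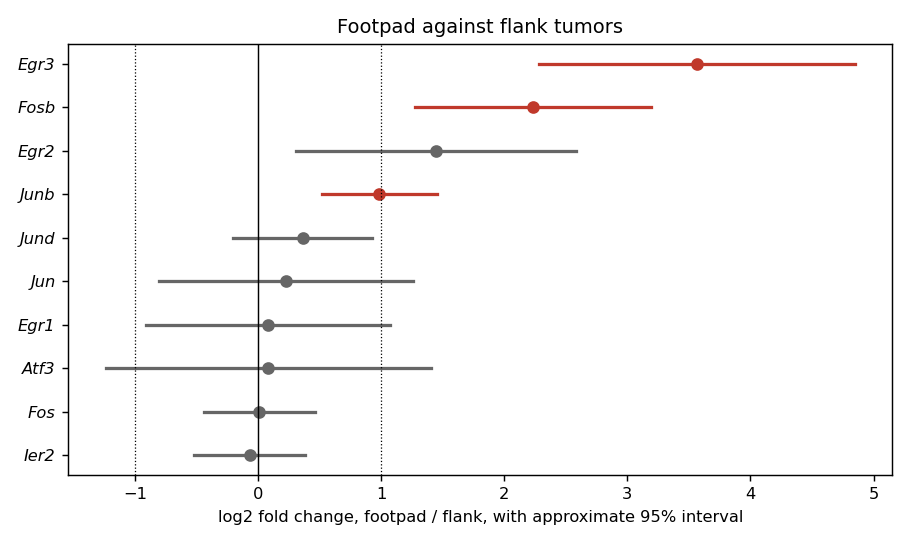
Log2 fold change of each gene between footpad and flank tumors (horizontal axis) with its approximate 95% interval, in order of size; red marks an adjusted p under 0.05 from edgeR and dotted lines a 2-fold change. Egr3 (3.57), Fosb (2.23) and Junb (0.99) pass, Egr2 (1.45) has an interval above 0 but does not pass after adjustment, and 6 intervals include 0.

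Most members ranked the tumors of a site alike. Among footpad tumors, replicate 1 was highest for 9 of the 10, with Ier2 the exception, and replicate 2 was lowest for 9, with Jund the exception. Among flank tumors, replicate 1 was highest for 7 of the 10. The share of all genes with these ranks was not counted, so the order is not shown to be particular to the members. Summed over the members, footpad replicates 1, 2 and 3 had 303, 162 and 248 CPM and flank replicates 1, 2 and 3 had 258, 146 and 159 CPM. Jun, Junb, Jund, Fos and Atf3 supplied most of each sum, and the sums overlapped between the sites. Footpad replicate 2, the lowest footpad tumor, was the one with keratinocyte and muscle RNA, and footpad replicate 1, the highest, had the most neutrophil and erythroid RNA. Their part in the members' levels was not tested. In the fit that left out footpad replicate 2, Egr3, Fosb and Junb were all called, and the log2 fold change of Fos was 0.18 and that of Ier2 0.10.

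**Figure D3:**
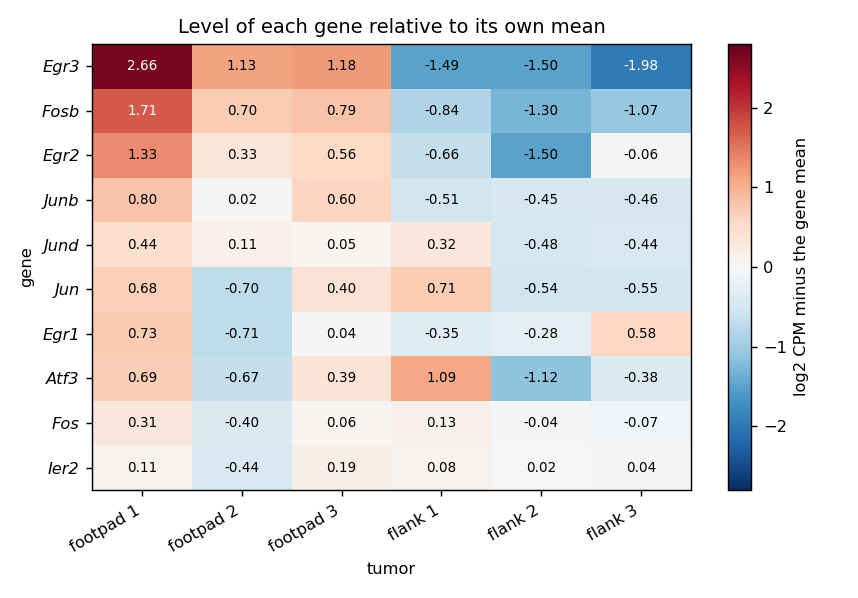
Log2 CPM (prior count 1) of each gene minus its mean over the 6 tumors, by tumor (columns) and gene (rows, in order of fold change); red is above the gene's mean and blue below. Egr3 ranges from -1.98 in flank replicate 3 to 2.66 in footpad replicate 1, whereas Fos and Ier2 stay within 0.44 of their means.

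By length-scaled level, the members fell into an abundant and a scarce group. Mean FPKM in footpad tumors was 24.9 ± 5.16 for Junb (SD, n = 3), 15.1 ± 5.69 for Atf3, 14.3 ± 5.51 for Jun, 12.7 ± 2.29 for Fos, 12.1 ± 1.02 for Jund and 9.52 ± 1.89 for Ier2. Below these came Egr1 at 1.57 ± 0.650, Egr3 at 0.627 ± 0.366, Fosb at 0.588 ± 0.198 and Egr2 at 0.567 ± 0.177 FPKM. In flank tumors the order began with Atf3 at 13.9 ± 10.03, Junb at 12.7 ± 1.33, Fos at 12.7 ± 0.686 and Jun at 12.1 ± 5.67 FPKM. It went on with Ier2 at 10.1 ± 0.648 and Jund at 9.36 ± 2.37 FPKM, and ended with Egr1 at 1.52 ± 0.594, Egr2 at 0.208 ± 0.0963, Fosb at 0.122 ± 0.00900 and Egr3 at 0.0526 ± 0.0128 FPKM. In flank tumors the 4 leading genes did not differ beyond their spread, nor did Egr3, Fosb and Egr2 in footpad tumors. Of the 3 members that passed the test, 2 (Egr3 and Fosb) belong to the scarce group and Junb was the most abundant transcript in footpad tumors. In gene structure the members also differ, since Jun, Junb, Jund and Ier2 have 1 exon in GENCODE M21 and the others have 2 to 5.

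Further genes of the early response were described from lists chosen from general knowledge, which share some genes, such as Fosl1, Dusp1 and Srf. Of 45 other immediate early and early response genes, 42 were tested, 7 were called higher in footpad tumors and 0 lower by edgeR (2 were lower at an unadjusted p under 0.05, and DESeq2 called 0 lower), against 2.89% and 0.872% of all genes, and the median log2 fold change was 0.74. Sgk1, a kinase induced by serum, steroids and cell shrinkage, had 38.2 ± 13.5 CPM in footpad and 10.8 ± 2.87 CPM in flank tumors (SD, n = 3), a log2 fold change of 1.82 with an edgeR adjusted p of 0.0271. Hbegf, a ligand of the EGF receptor, had 20.7 ± 6.46 against 6.92 ± 1.39 CPM (log2 fold change 1.58, edgeR adjusted p = 0.0284). Ier5, a relative of Ier2, had 17.8 ± 6.61 against 5.28 ± 2.02 CPM (log2 fold change 1.75), at an edgeR adjusted p of 0.04997, just inside the threshold. The other 4 called genes were Plk3, Csrnp1, Trib1 and Errfi1, with log2 fold changes from 1.21 to 1.39, named here after their values were seen. The sites did not overlap for any of these 7, which were picked by the test. Over the 42 tested, the sites did not overlap for 18 genes higher and 3 lower in footpad tumors, against 17.5% and 14.9% of all genes. The number called was 9 without footpad replicate 2, 1 without flank replicate 1 and 2 without flank replicate 2. It was 0 by edgeR without footpad replicate 1, footpad replicate 3 or flank replicate 3. In those fits 9, 10 and 8 genes had p under 0.05 before adjustment and at least a 2-fold difference. DESeq2, run on all tumors only, called 11, all higher, against 6.71% of all genes higher and 2.05% lower. Egr4, Arc and Npas4, which neurons use, did not pass the filter on low counts.

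Genes that AP-1 or Egr proteins are known to regulate were also higher in footpad tumors in part. Of 20 tested, 5 were called higher and 0 lower by edgeR (0 were lower at an unadjusted p under 0.05, and DESeq2 called 8 higher and 0 lower), against 2.89% of all genes higher and 0.872% lower by edgeR and 6.71% and 2.05% by DESeq2, with a median log2 fold change of 1.45. Plaur, the receptor of urokinase, had 23.1 ± 11.5 against 6.02 ± 1.6 CPM (SD, n = 3), a log2 fold change of 1.94 with an edgeR adjusted p of 0.0458, and Timp1, an inhibitor of matrix proteases, 37.4 ± 10.96 against 12.9 ± 1.66 CPM (log2 fold change 1.54, edgeR adjusted p = 0.0234). The growth factor genes Fgf2 and Pdgfb had log2 fold changes of 2.83 and 2.17 (edgeR adjusted p = 0.0321 and 0.0301). Footpad replicate 2 was the lowest footpad tumor for all 5 called genes, as for most members. The count was 8 without footpad replicate 2, 3 without flank replicate 2, and 0 by edgeR in each fit without 1 of the other 4 tumors, where 6 to 9 genes had p under 0.05 before adjustment and at least a 2-fold difference. Fibroblasts and endothelial cells also express several of these genes, the markers of both cell types summed to more in each footpad tumor than in any from the flank, and their part was not tested.

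The relatives, inputs and feedback of the pathway are read against the shares of all genes. Of all genes 25.3% had an unadjusted p under 0.05, 14.8% higher and 10.5% lower. DESeq2 called 6.71% of all genes higher and 2.05% lower, and edgeR 2.89% and 0.872%. Of 21 AP-1 relatives and partners, 0 were called by edgeR (9 had an unadjusted p under 0.05, 3 higher and 6 lower, and DESeq2 called 2). Of the 21 log2 fold changes 9 were above 0 and 12 below, down to -1.53. Fosl1, a further Fos gene, had the largest positive value, a log2 fold change of 2.13 (SE 0.97, edgeR adjusted p = 0.218). It rested on only 35, 11 and 28 reads in footpad replicates 1 to 3 and 4, 15 and 1 in flank replicates 1 to 3, and the sites overlapped. Of 25 genes of the inputs (serum response factor and its partners, MAP kinases and CREB), 0 were called by edgeR (8 had an unadjusted p under 0.05, 5 higher and 3 lower, and DESeq2 called 0). Mrtfa and Mrtfb, actin-regulated partners of serum response factor, had log2 fold changes of 0.84 and 0.68 (edgeR adjusted p = 0.0551 and 0.0882). Of 17 genes of MAP kinase feedback and Egr corepression, 0 were called by edgeR (4 had an unadjusted p under 0.05, 3 higher and 1 lower, and DESeq2 called 2). The phosphatase genes Dusp5 and Dusp14 had 2.24 and 1.26 (edgeR adjusted p = 0.0759 and 0.0510). Dusp6, a phosphatase of ERK that ERK signaling itself induces, was lower in footpad tumors at an adjusted p of 0.0491 from edgeR, by -0.65 on the log2 scale, which is under the fold threshold, and it is named here after its value was seen.

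**Figure D4:**
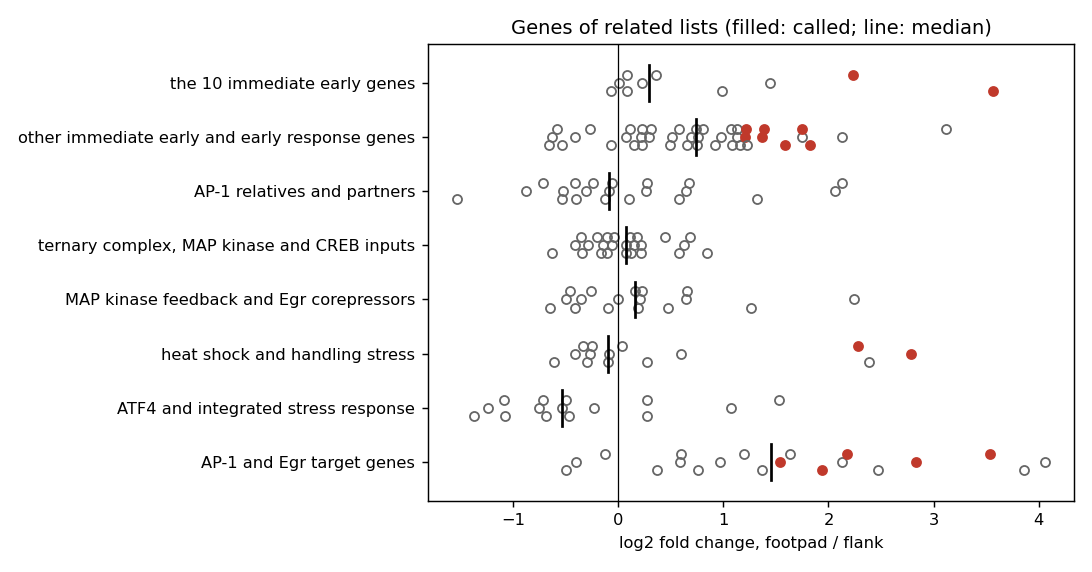
Log2 fold change between footpad and flank tumors (horizontal axis) of the tested genes of each list (rows); filled points are called, open points are not, and vertical lines are medians. The medians run from -0.54 for the ATF4 list to 1.45 for AP-1 and Egr targets, and no filled point lies left of 0.

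Since the handling of tissue can induce immediate early genes, stress genes were read beside them. Of 14 heat shock genes, 2 were called higher and 0 lower by edgeR, against 2.89% and 0.872% of all genes. DESeq2 called 3 higher and 0 lower, against 6.71% and 2.05%. At an unadjusted p under 0.05 from edgeR, 4 were higher and 1 lower, against 14.8% and 10.5%. The median log2 fold change was -0.09. The 2 called by edgeR were Hspa1a and Hspa1b, near-identical copies of the inducible Hsp70 gene, so that reads they share may have been assigned to either. Hspa1b had 27.8, 9.58 and 34.9 CPM in footpad replicates 1 to 3 and 5.45, 6.48 and 2.89 CPM in flank replicates 1 to 3 (log2 fold change 2.28, edgeR adjusted p = 0.0477), and Hspa1a followed the same order of footpad tumors (log2 fold change 2.79, edgeR adjusted p = 0.0482). All 3 footpad tumors were above all flank tumors for both. The count was 0 with upper-quartile scaling, 3 without footpad replicate 2 and 0 by edgeR in each fit without another tumor, where 3 genes each time had p under 0.05 before adjustment and at least a 2-fold difference. Of 15 genes of the ATF4 stress response, which also induces Atf3, 0 were called by edgeR, and 11 of 15 log2 fold changes were below 0. In this list 10 had an unadjusted p under 0.05, 2 higher and 8 lower, against 14.8% and 10.5% of all genes. DESeq2 called 6 of the list, 2 higher and 4 lower, against 6.71% and 2.05% of all genes. Nupr1 and Cebpb had the largest values, log2 fold changes of -1.37 and 1.53 (edgeR adjusted p = 0.0661 and 0.0952). How long the tumors of each site were handled is not given in the sources used here, and the part of handling in the members' levels was not tested.

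Outside these lists, the genes whose pattern was most like the members' mean were F11r, Aatk, Mamld1, Dedd2 and Stx11. Likeness was the root mean square difference, over the 6 tumors, between the centered log2 CPM of a gene and the mean of the members' centered values, which was 0.0792 for F11r and 0.133 for Stx11. Of the members themselves Junb was closest to that mean, at 0.209, and Egr3 farthest, at 1.27. F11r, a protein of tight junctions, had 13.0, 6.23 and 9.43 CPM in footpad replicates 1 to 3 and 5.33, 4.12 and 4.67 CPM in flank replicates 1 to 3. None of these 5 genes passed the test (adjusted p from 0.0675 to 0.149 by edgeR).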

How the data were processed

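Total RNA of 3 footpad and 3 flank B16F10 tumors was analysed, with groups taken from the sample titles. After trimming with Trimmomatic the authors mapped reads to mm10 by HISAT2 2.1.0, and they deposited unnormalized counts of reads on each gene as well as FPKM, which corrects for length and library size. The counting program and the criterion of the filter on read counts are not given in the sources used here. Per the submitters' processing notes FastQC 0.11.7 was also used.

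The counts were compared in edgeR 4.0.16 under R 4.3.3 (TMM, filterByExpr, glmQLFit and glmQLFTest, Benjamini-Hochberg adjustment over 17210 genes). Standard errors were approximated as the log2 fold change divided by the square root of F, and 95% intervals from them. Genes at least 2-fold apart with an adjusted p below 0.05 were called. Alternatives were DESeq2 1.42.0, limma 3.58.1 on log2(FPKM + 1) and log2(FPKM + 0.1), other scalings and filters, the replicate number as a block, and leaving out each tumor. Alternatives for list counts and for named genes outside the 10 were added after the data were seen. The fits were also run on counts simulated for independent tumors without differences in cell content. The simulation therefore does not show how the fits behave where tumors differ in cell content, as they did here.

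The 10 genes and all lists were chosen with earlier results of these data known. The genes named are the 10, the called genes of each list (where over 6, the 3 largest rises and 3 largest falls; where under 2, also the 2 largest changes), and the 5 genes with the most similar pattern, except 2 genes that are not reported here. The study gives n as 3 mice for these data. The labels tie no tumor to an animal, so p-values treat the 6 tumors as independent and measure the spread between them. Tumors of a site differed by more than sampling noise, with a chi-square per gene of 62.3 to 578. Of 45777 gene identifiers, 45679 matched RefSeq of GRCm38.p6, from which coordinates and promoters were taken. Figures were drawn with matplotlib 3.10.9 in Python 3.11.15.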

Additional observations from a re-analysis of the deposited data

How the results depend on the processing

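The number of members called was 2 in the main fit by edgeR over all tumors. It was 3, with Junb in addition, with upper-quartile scaling and with at least 10 counts in every tumor. With limma on log2(FPKM + 1), in which the pseudocount shrinks the change of low genes by construction, it was 0. It was between 0 and 3 when 1 tumor was left out (3 without footpad replicate 2, 1 without flank replicate 2, 0 without any other tumor). Of all genes tested, 647 were called, 1506 by DESeq2, 366 with limma on log2(FPKM + 1) and 0 to 836 without a tumor. Of the other immediate early genes 7 were called, 11 by DESeq2 and 0 to 9 without a tumor. With limma on log2(FPKM + 1) Egr3 had a log2 fold change of 0.61 (adjusted p = 0.0585). Without a tumor the log2 fold changes ranged from 2.87 to 3.82 for Egr3, 1.83 to 2.41 for Fosb and 0.82 to 1.18 for Junb, and the adjusted p passed in 2, 1 and 1 of the 6 fits, each of which has fewer samples.

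The samples share a replicate number only. The deviations of equal numbers from their site means correlated at 0.0544, -0.0965 and -0.115, and 0 of the 6 tumors correlated best with their own number. With the number as a block, 0 genes, 0 members and 0 other immediate early genes were called by edgeR, with 1791, 3 and 13 at p below 0.05 before adjustment and at least 2-fold apart, and the log2 fold changes of Egr3, Fosb and Junb were 3.40, 2.17 and 0.95.

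Fos, near 0, turned sign with limma on log2(FPKM + 1) and log2(FPKM + 0.1) (-0.0171 and -0.0194), with no filter on low counts (-0.00199) and with the block (-0.0160), and ranged from -0.16 to 0.18 without a tumor. Leaving out a tumor also turned the sign of Atf3 (-0.29 to 0.94), Egr1 (-0.34 to 0.45), Jun (-0.0592 to 0.77) and Ier2 (-0.19 to 0.10). Egr2 and Jund kept their sign and did not pass in any of the 14 alternatives. Depth limits Egr3 most, at 12 to 16 reads in flank tumors.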
